A study of Mus musculus with 9 samples.

Results

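The nuclear-encoded subunits of the mitochondrial respiratory chain were examined in mouse duodenum. Members were the protein-coding genes whose symbols begin with Ndufa, Ndufb, Ndufc, Ndufs or Ndufv (complex I), Sdh (complex II), Uqcr (complex III), Cox4 to Cox8 (complex IV) or Atp5 (complex V), without the assembly factors named Ndufaf and Sdhaf, and were kept where FPKM, fragments per kilobase of gene scaled for library depth, averaged 0.5 or more over all 9 libraries. Of 54532 genes in the table, 86 carried such a name and 82 met the limit, with 38 in complex I, 4 in complex II, 8 in complex III, 15 in complex IV and 17 in complex V. Just inside the limit were Cox4i2 (0.697 FPKM), Ndufa4l2 (0.961 FPKM), Cox6a2 (1.26 FPKM) and Ndufb2 (1.77 FPKM). Outside it were Cox8b (0.276 FPKM), Cox7b2 (0.098 FPKM), Cox8c (0.0136 FPKM) and a second entry named Atp5o (0 FPKM).

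Duodenum tissue was sequenced from 3 groups of 3 samples. The first group, CeD+GR, was a delayed-type hypersensitivity (DTH) mouse model of celiac disease that received gliadin-rapamycin composite nanoparticles before enhanced gluten stimulation. The second group, CeD, was the same model with enhanced gluten stimulation and no nanoparticles. The control group was labelled WT with non-enhanced gluten stimulation, so model and gluten dose differ together between CeD and control. The sources used here give no strain, sex or age. They also do not say that each sample is a different animal, and the p-values speak only to the spread among the samples.

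The respiratory chain moves electrons from NADH (complex I) and succinate (complex II) through complex III to oxygen at complex IV, and complex V, the ATP synthase, uses the resulting proton gradient to make ATP. Each complex except II combines a few subunits made inside mitochondria from the mitochondrial genome with many made from nuclear genes. Nuclear respiratory factor 1 (NRF1), the ETS factor GABPA, YY1 and the estrogen-related receptors (ERR) are known regulators of these nuclear genes, and the absorptive enterocytes of the small intestine are rich in mitochondria. In bulk tissue, fewer cells of a type and less RNA per cell cannot be told apart.

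Sequence from just before to just after the annotated start (250 bases before it, 50 from it on) was taken from RefSeq on GRCm38.p6, which held windows for 67 of the 82 members. The members below are those with the highest mean FPKM in complexes I to V among members with a printed window (Atp5g3 stands for complex V), followed by Ndufs8, whose level followed the others least among the 78 members that averaged 2 FPKM or more. Capitals mark matches on either strand to NRF1 (CGCANGCG), ETS/GABPA (CCGGAAG), YY1 (AANATGGCG) or ERR (TNAAGGTCA), where N is any base.
Ndufa1, chrX:37191189-37191488, minus strand: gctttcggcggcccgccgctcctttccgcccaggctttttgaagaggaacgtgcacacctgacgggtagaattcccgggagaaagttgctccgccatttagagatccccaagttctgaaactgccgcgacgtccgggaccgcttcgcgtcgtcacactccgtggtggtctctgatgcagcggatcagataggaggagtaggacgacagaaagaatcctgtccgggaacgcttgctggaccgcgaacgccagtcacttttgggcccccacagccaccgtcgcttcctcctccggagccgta
Sdhd, chr9:50603800-50604099, minus strand: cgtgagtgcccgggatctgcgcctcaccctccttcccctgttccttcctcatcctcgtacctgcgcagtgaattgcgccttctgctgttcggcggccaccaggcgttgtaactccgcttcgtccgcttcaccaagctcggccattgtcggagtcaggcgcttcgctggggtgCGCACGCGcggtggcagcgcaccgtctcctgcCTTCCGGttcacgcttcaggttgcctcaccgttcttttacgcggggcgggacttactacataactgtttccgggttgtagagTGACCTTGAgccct
Uqcrh, chr4:116075021-116075320, minus strand: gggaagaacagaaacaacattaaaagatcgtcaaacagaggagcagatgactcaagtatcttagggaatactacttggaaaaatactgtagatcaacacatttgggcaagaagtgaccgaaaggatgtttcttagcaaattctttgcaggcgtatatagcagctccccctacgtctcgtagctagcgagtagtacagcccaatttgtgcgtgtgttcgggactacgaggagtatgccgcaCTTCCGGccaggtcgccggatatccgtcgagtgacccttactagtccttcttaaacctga
Cox6a1, chr5:115348909-115349208, minus strand: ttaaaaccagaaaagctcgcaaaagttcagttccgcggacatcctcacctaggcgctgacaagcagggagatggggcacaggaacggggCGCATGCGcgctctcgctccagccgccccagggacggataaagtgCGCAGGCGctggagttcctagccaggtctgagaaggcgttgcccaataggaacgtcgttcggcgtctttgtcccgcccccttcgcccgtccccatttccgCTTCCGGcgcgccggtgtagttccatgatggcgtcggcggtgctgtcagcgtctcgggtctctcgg
Atp5g3, chr2:73911277-73911576, minus strand: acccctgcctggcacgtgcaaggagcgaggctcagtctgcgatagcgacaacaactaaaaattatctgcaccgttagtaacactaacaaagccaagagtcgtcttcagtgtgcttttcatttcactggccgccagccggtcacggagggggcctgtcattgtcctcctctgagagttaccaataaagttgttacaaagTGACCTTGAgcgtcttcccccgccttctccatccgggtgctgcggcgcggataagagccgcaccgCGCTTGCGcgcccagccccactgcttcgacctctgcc
Ndufs8, chr19:3912725-3913024, minus strand: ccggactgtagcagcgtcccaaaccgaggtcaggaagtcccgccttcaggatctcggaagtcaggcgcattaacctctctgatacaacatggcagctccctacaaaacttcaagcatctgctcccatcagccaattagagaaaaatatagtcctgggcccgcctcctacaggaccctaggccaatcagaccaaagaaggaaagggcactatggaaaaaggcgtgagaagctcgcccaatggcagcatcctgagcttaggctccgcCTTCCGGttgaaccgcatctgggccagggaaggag
The Cox6a1 window held CGCATGCG and CGCAGGCG, both matches to the NRF1 letters, and CTTCCGG, the ETS letters on the opposite strand, which started 16 bases before the annotated start. The Sdhd window held 1 match each for NRF1, ETS and ERR, and the Atp5g3 window 1 each for NRF1 and ERR. Uqcrh and Ndufs8 each held 1 ETS match, and Ndufa1 held no match.

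At least 1 of the 4 motifs was present in windows of 41 of the 67 members, a count for which the share over all genes was not computed. NRF1 letters were present for 25 members (37.3%), against 18.7% of the 9866 tested protein-coding genes with a window. YY1 letters were present for 10 members (14.9%), against 5.78%. ERR letters were present for 3 members (4.48%), Sdhd, Atp5g3 and Ndufb4, against 0.953%. ETS letters were present for 16 members (23.9%), against 19.4%. Matches of different motifs overlapped in 0 member windows. A match describes letters only, and these windows were not tied to any difference between groups.

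Reads assigned to genes were even, at 15373260 to 16852104 per library. The depth by which FPKM were scaled, recovered from the values, ran from 14410550 in CeD 2 to 18206426 in control 1. It lay above the assigned reads in CeD 1 (17831210 against 15373260) and control 1, and below them in CeD 2 and control 2. The members took from 1.34% of the assigned reads in CeD+GR 3 to 2.08% in control 3. CeD 1 and control 1 stood at 1.56% each, against 1.72% in CeD 2 and 1.73% in CeD 3. The part of this scaling in the FPKM levels of CeD 1 and control 1 was not tested. The libraries did not differ by group label alone. The 3 replicate 1 libraries had the highest sums of crypt proliferation markers (79.9, 99.9 and 74 FPKM in CeD+GR 1, CeD 1 and control 1, against 24.2 to 55.2 FPKM in the other libraries) and of Paneth cell markers (1037 to 2081 FPKM, against 72.9 to 170.1 FPKM). Stomach and Brunner gland markers summed to 139698 FPKM in CeD+GR 3, against 0 to 50.5 FPKM elsewhere, and pancreatic acinar markers to 3153 FPKM in CeD 1, against 3.18 to 44.1 FPKM elsewhere. Adipocyte markers summed to 396 FPKM in CeD+GR 2, with all 7 above 0, against 36.5 to 104 FPKM elsewhere, and erythroid markers to 60.2 FPKM in CeD+GR 2, against 6.31 to 34.9 FPKM elsewhere. All 10 enterocyte markers were above 0 in every library. Their sum was lowest in CeD+GR 3 (8921 FPKM), CeD 1 (13417 FPKM) and control 1 (17069 FPKM), against 28499 to 36890 FPKM in the other 6. In CeD+GR 3 all 7 stomach and Brunner gland markers were also above 0.

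No subunit passed the test in any of the 3 comparisons. In limma on log2(FPKM + 0.5) over all 14683 genes tested, 0 of 82 members passed a Benjamini-Hochberg adjusted p of 0.05 in CeD+GR against CeD, CeD+GR against control or CeD against control, where the share of all genes called was 0% each time. At an unadjusted p under 0.05 there were 1 (Cox6a2), 0 and 0 members, beside 2.89%, 2.72% and 0.701% of all genes. Limma-voom on reads recovered from the FPKM also called 0 members. The members' own levels, and the libraries in which they were high and low, carry the description that follows.

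**Figure D1:**
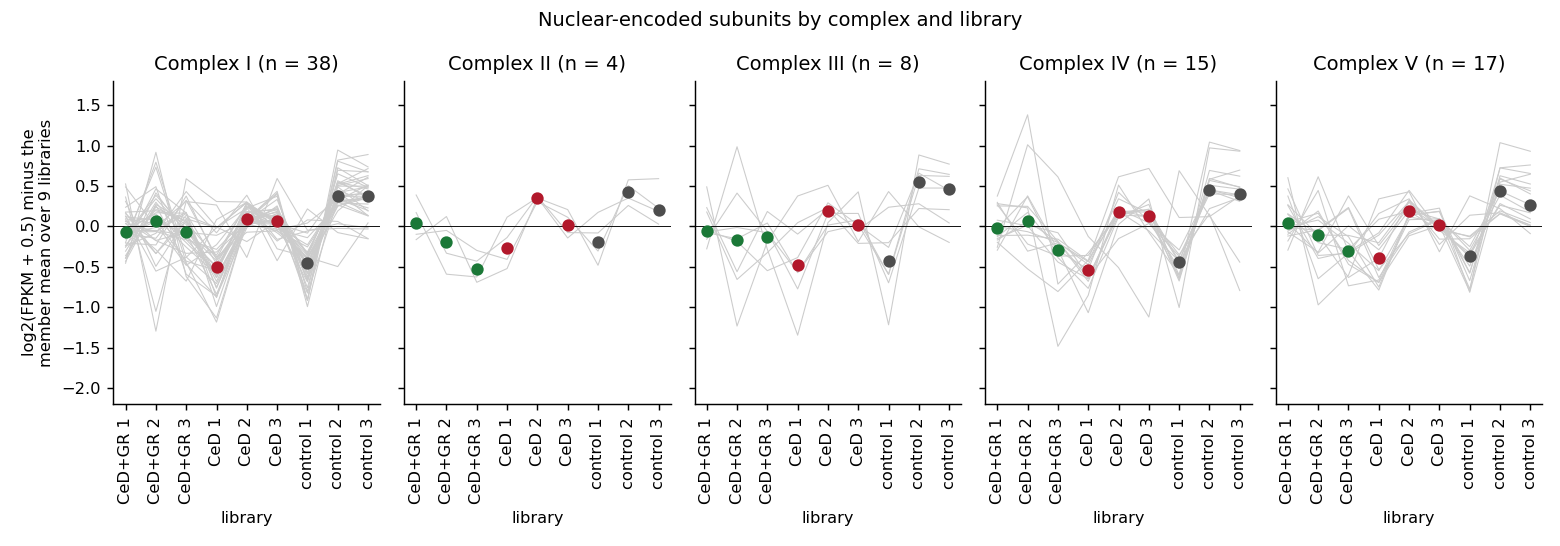
Level of each member in each library as log2(FPKM + 0.5) minus that member's mean over the 9 libraries, by complex (grey lines: members, n per panel; coloured points: the median of the complex in that library). In complexes I, III, IV and V the medians of CeD 1 and control 1 lie between -0.36 and -0.53 and those of control 2 and control 3 between 0.27 and 0.55; in complex II the lowest median is that of CeD+GR 3 (-0.53).

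Levels per length differed widely within each complex. Mean FPKM over the 9 libraries ran from 0.961 to 237 in complex I (median 64), from 93.6 to 390.4 in complex II (median 137), from 93.5 to 307 in complex III (median 128), from 0.697 to 739.9 in complex IV (median 147) and from 3.48 to 444 in complex V (median 86.9). At 100 FPKM or more stood 34 members, and 4 were under 2 FPKM.

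Among the 7 nuclear core subunits of complex I, which carry the flavin and iron-sulfur centres, Ndufs1 had the lowest mean, 17.4 FPKM, and the 31 accessory members ranged from 0.961 to 237 FPKM. Ndufa1, a small accessory subunit, was the highest, with 192, 355 and 156 FPKM in CeD+GR, 93.6, 224 and 281 FPKM in CeD and 113, 374 and 341 FPKM in control duodenum. Its lowest values were those of CeD 1 and control 1. Ndufs1, the largest core subunit, had 17.6, 13.9 and 10.5 FPKM in CeD+GR, 18.2, 21.1 and 16.6 FPKM in CeD and 17.6, 21.7 and 19.7 FPKM in control duodenum. CeD+GR 2 and CeD+GR 3 were its lowest libraries, and the highest CeD+GR value lay below the lowest control value by less than the rounding shown. Ndufs8, an iron-sulfur core subunit, had 74.2, 20.6 and 77.6 FPKM with CeD+GR, 63.8, 63.5 and 38.2 FPKM with CeD and 59.8, 48.7 and 46.2 FPKM in control, and stood out by 1 library, CeD+GR 2, which was lowest. Ndufb2 was low at 1.77 FPKM, with a gene model of 5628 bases for a coding sequence of 315 bases. Its FPKM is therefore not directly comparable with those of members with short gene models. The same holds for other members with long gene models, such as Ndufab1 (6883 bases) and Ndufb5 (4995 bases).

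Complex II, succinate dehydrogenase, also belongs to the citric acid cycle. Sdhd, a membrane anchor, was the highest of the 4 by FPKM. It had 332, 405 and 230.2 FPKM in the CeD+GR libraries, 259, 475 and 430.0 FPKM in the CeD libraries and 267, 555 and 561 FPKM in the control libraries. Control 2 and control 3 stood above the other 7 libraries and CeD+GR 3 below them. Sdha, the flavoprotein that oxidizes succinate, had 166, 97.4 and 95.1 FPKM in CeD+GR, 159, 188 and 133 FPKM in CeD and 166, 188 and 167 FPKM in control duodenum. CeD+GR 2 and CeD+GR 3 were the lowest, and all 3 CeD+GR values lay below all 3 control values, the highest of them by less than the rounding shown. Sdhb, the iron-sulfur subunit, had 159, 96.3 and 89.9 FPKM with CeD+GR, 110.2, 157 and 115 FPKM with CeD and 115, 145 and 124 FPKM in control, and Sdhc, the second anchor, had 85.7, 88.6 and 74.6 FPKM with CeD+GR, 69, 114 and 99.2 FPKM with CeD and 74.1, 130.3 and 107 FPKM in control, with overlapping groups in both.

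The naming rule leaves cytochrome c1 (Cyc1) out of complex III. Among the members of this complex, Uqcrh, the hinge protein between the cytochromes, was the highest by FPKM and one of the most variable. It had 219, 527 and 218 FPKM with CeD+GR, 104, 274 and 358 FPKM with CeD and 114, 491 and 454 FPKM in control. The highest library was CeD+GR 2 and the lowest were CeD 1 and control 1, a range of 5.05-fold. Uqcrfs1, the Rieske iron-sulfur protein, had 240.1, 218 and 169 FPKM in the CeD+GR libraries, 189, 303 and 250.2 FPKM in the CeD libraries and 207, 391 and 337 FPKM in the control libraries. The core proteins Uqcrc1 and Uqcrc2 had another order. Uqcrc2 had 127, 38 and 78.9 FPKM in CeD+GR, 117, 128 and 79 FPKM in CeD and 122, 89.7 and 78.4 FPKM in control duodenum, with CeD+GR 2 the lowest library, control 1 above both other control libraries, and CeD 2 and CeD+GR 1 the highest. Uqcrc1 had 134, 75.2 and 94.7 FPKM in CeD+GR, 123, 139.7 and 115 FPKM in CeD and 140.1, 144 and 122 FPKM in control duodenum, with CeD+GR 2 again the lowest.

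Complex IV held the members with the highest FPKM. By recovered reads over all libraries the order was another one. Atp5b, with a gene model of 4237 bases, had 225958 reads, and Cox6a1, with one of 702 bases, had 75075. Cox6a1, the liver-type form of subunit 6a and the highest of all 82 by FPKM, had 727, 695 and 634 FPKM in the CeD+GR libraries, 524, 846 and 749 FPKM in the CeD libraries and 594, 989.7 and 901 FPKM in the control libraries. The 3 CeD+GR values lay inside the range of the CeD values and of the control values. Cox8a, the common form of the smallest nuclear subunit, had 539, 605 and 567 FPKM with CeD+GR, 388, 658 and 694 FPKM with CeD and 394, 903 and 836 FPKM in control. Cox6b1, which faces the intermembrane space, had 336, 395 and 332 FPKM in CeD+GR, 236, 429 and 427 FPKM in CeD and 236, 567 and 613 FPKM in control duodenum. For Cox4i1, the common form of subunit 4, the values were 449.7, 588 and 349 FPKM with CeD+GR, 268, 496 and 551 FPKM with CeD and 290.0, 677 and 640.4 FPKM in control. In all 3 genes the lowest libraries were CeD 1 and control 1 and the highest were control 2 and control 3, so the groups overlapped. Cox7c, a small subunit, had 179.7, 287 and 181 FPKM with CeD+GR, 105, 224 and 279 FPKM with CeD and 109.7, 433 and 421 FPKM in control. Its control 2 and control 3 values were the highest of the 9 libraries, while control 1 and CeD 1 were the lowest.

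The highest mean FPKM in complex V was that of Atp5a1, of the catalytic F1 sector. Atp5a1 (subunit alpha) had 564, 277 and 345 FPKM in CeD+GR, 485, 551 and 372 FPKM in CeD and 478, 488 and 438 FPKM in control duodenum, so CeD+GR 1 was highest and CeD+GR 2 lowest of all 9. Atp5b, the beta subunit that carries the catalytic sites, had 526, 176 and 228 FPKM in CeD+GR, 438, 466 and 278 FPKM in CeD and 449.8, 403 and 325 FPKM in control duodenum. Again CeD+GR 1 was highest and CeD+GR 2 lowest, with CeD+GR 3 next above it. Atp5g3, one of 3 genes for the same mature subunit c of the membrane ring, had 328, 505 and 223 FPKM in the CeD+GR libraries, 234, 409 and 423 FPKM in the CeD libraries and 248, 613 and 585 FPKM in the control libraries. This order was another one: control 2 and control 3 were highest, and CeD+GR 3 and CeD 1 were lowest. The other 2 genes for subunit c were less abundant, Atp5g2 with 60.3, 63.7 and 77.2 FPKM with CeD+GR, 45.1, 61.5 and 69.6 FPKM with CeD and 55, 89.1 and 79 FPKM in control, and Atp5g1 with 29.4, 24.6 and 40.2 FPKM with CeD+GR, 26.1, 36.5 and 30.5 FPKM with CeD and 23.9, 37.6 and 32.9 FPKM in control. CeD+GR 3, lowest for Atp5g3, was the highest library for Atp5g1 and lay above CeD+GR 1 and CeD+GR 2 for Atp5g2.

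**Figure D2:**
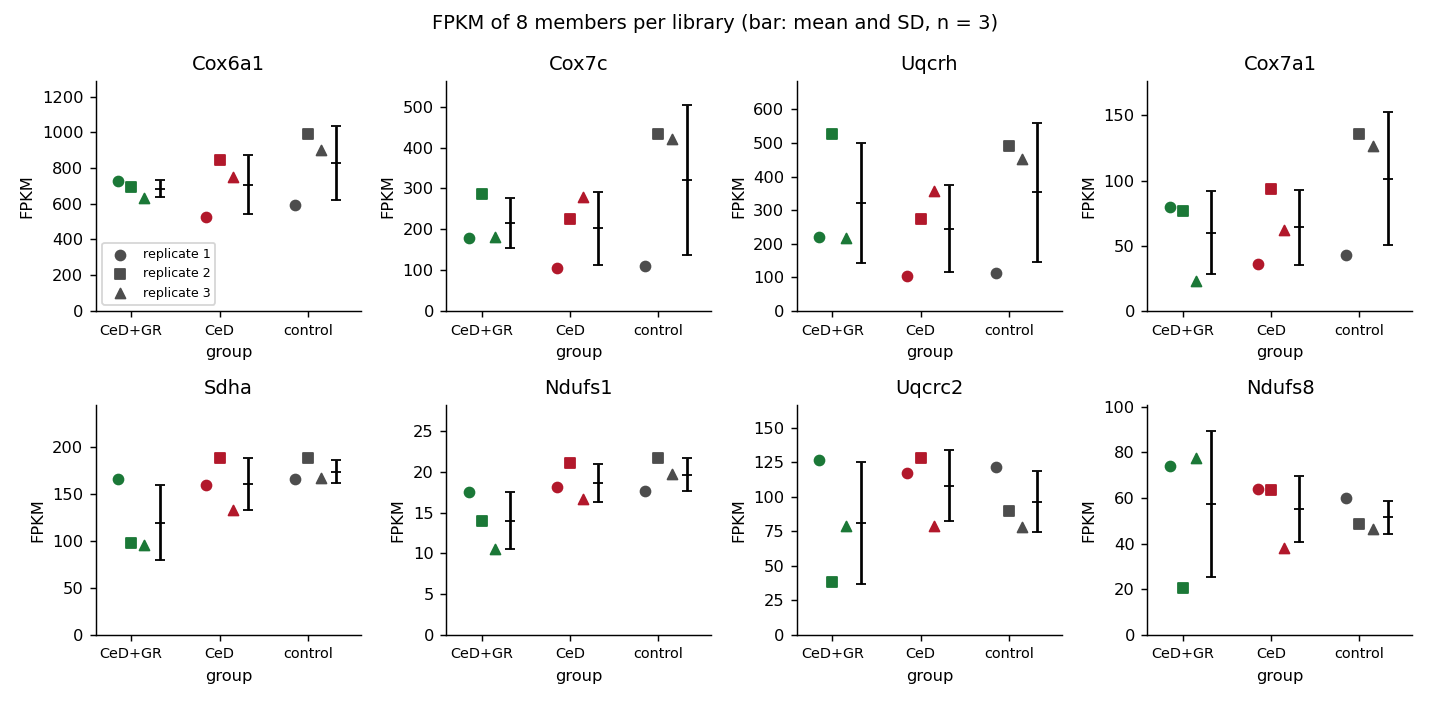
FPKM of 8 members in each library (symbols: replicates 1 to 3; bar: mean and SD, n = 3), with CeD+GR left, CeD in the middle and control right, on axes that start at 0. Cox6a1, Cox7c, Uqcrh and Cox7a1 are low in CeD 1 and control 1, whereas Uqcrc2 and Ndufs8 are lowest in CeD+GR 2, and Sdha and Ndufs1 are lowest in CeD+GR 2 and CeD+GR 3.

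The spread among libraries of 1 group was as wide as the spread among groups. Over the 78 members with a mean of at least 2 FPKM, the highest library exceeded the lowest by a median of 2.1-fold, from 1.36-fold for Ndufa10 to 6.16-fold for Cox6b2. Control 2 was the highest library for 40 of 82 members and control 3 for 22. CeD 1 was the lowest for 36, control 1 for 18, CeD+GR 2 for 14 and CeD+GR 3 for 11. The median member stood at -0.04, -0.01 and -0.19 in the CeD+GR libraries, -0.48, 0.18 and 0.07 in the CeD libraries and -0.43, 0.44 and 0.38 in the control libraries, as log2 distance from each member's mean over the 9. The highest control value and the lowest one therefore stood further apart than any pair of group means.

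Replicate 1 was the low library within CeD and within control, but not within CeD+GR. It was the lowest of the 3 libraries for 17 of 82 members in CeD+GR, beside 26.6% of all genes tested, for 67 in CeD, beside 39%, and for 73 in control, beside 40.2%. The difference of replicate 1 from the mean of replicates 2 and 3 had a median over members of 0.04 in CeD+GR, -0.61 in CeD and -0.81 in control on the log2 scale, where the medians over the 12391 protein-coding genes tested were 0.03, -0.01 and 0.03. CeD+GR 1 was the highest CeD+GR library for 32 members, beside 30.4% of all genes. CeD 1 was the highest CeD library for 2 members, Ndufs8 and Cox4i2, beside 38.8%. Control 1 was the highest control library for 5 members, Atp5b, Uqcrc2, Ndufb6, Ndufs8 and Cox4i2, beside 42.4%. The enterocyte marker sum was also lowest in replicate 1 within CeD (13417, against 36890 and 29046 FPKM) and within control (17069, against 35454 and 28499 FPKM), and in CeD+GR it was lowest in replicate 3. The part of these markers in the members' levels was not tested.

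Members with short and long coding sequences differed in these libraries. Measured as Pearson's r with log2 coding length over the 82 members, which share their libraries and are not independent, the replicate 1 difference had r = 0.42 in CeD+GR, 0.53 in CeD and 0.57 in control. Over 12368 protein-coding genes the same values were 0.06, 0.19 and 0.30. Members were split by length at their quartiles. In CeD+GR the shortest 21 (coding sequences of 156 to 298 bases) had a median replicate 1 difference of 0.06, and the longest 21 (592 to 2181 bases) had 0.52. These medians were -0.78 and -0.18 in CeD and -1.17 and -0.24 in control. All protein-coding genes in the same length ranges had medians of -0.09 and 0.03 in CeD+GR, -0.41 and -0.05 in CeD and -0.50 and -0.02 in control. Length and role go together here, since the core proteins of complex III (median coding length 1399.5 bases) and the F1 subunits (894 bases) are longer than the small subunits of complex III (246 bases), so the 2 cannot be told apart in these members.

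**Figure D3:**
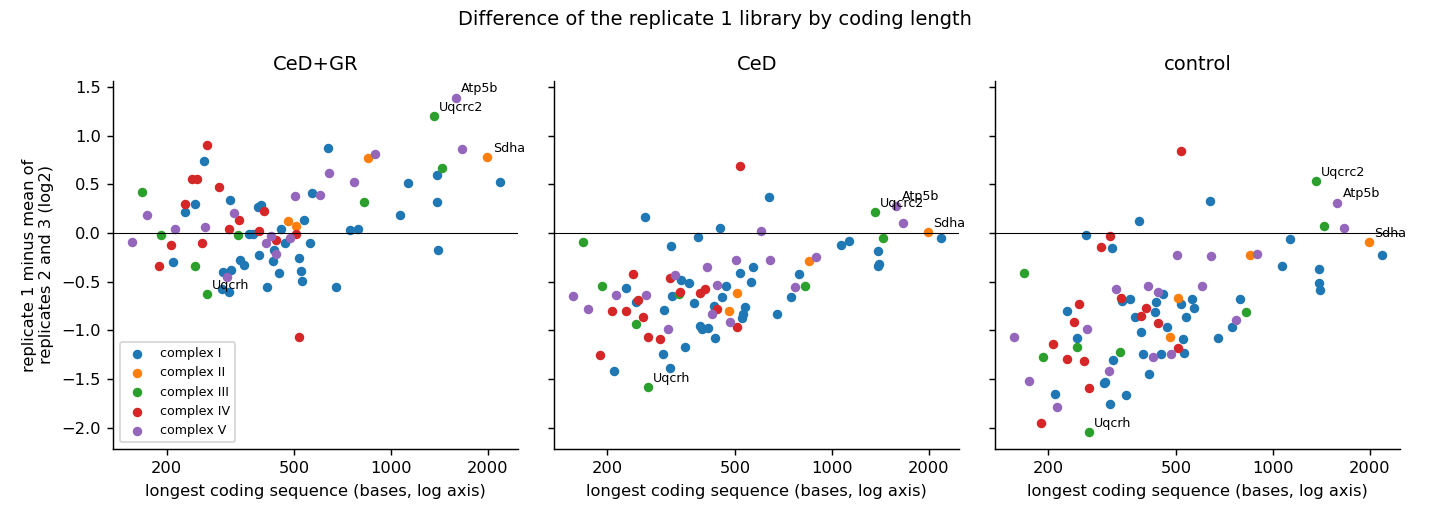
Difference of replicate 1 from the mean of replicates 2 and 3 in log2(FPKM + 0.5) for each of the 82 members, against its longest coding sequence (bases, log axis), in CeD+GR, CeD and control; colours mark the complexes. In CeD and control most points lie below 0, the lowest being short subunits such as Uqcrh, while Uqcrc2 and Atp5b lie above 0 in all 3 groups.

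The same division showed by role. In CeD+GR 2 the F1 subunits had a median of -0.36 and the 2 core proteins of complex III -0.94, whereas the Fo, stalk and other members of complex V had 0.02, the small members of complex III -0.01 and the accessory members of complex I 0.11, as log2 distance from the mean over 9 libraries. In control 1 the values were -0.13 for F1 and 0.34 for the core proteins, against -0.44 for Fo, stalk and other members and -0.59 for the small members of complex III. CeD+GR 2 was also the library with the highest sums of adipocyte and erythroid markers, whose part in these values was not tested. The F1 share of the members' summed FPKM was 15.7, 7.77 and 11.3% in CeD+GR, 17.4, 13.2 and 9.82% in CeD and 16.9, 9.71 and 8.94% in control. The replicate 1 library had the largest F1 share in each group.

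Most members tracked 1 shared pattern over the libraries. Across the 78 members with a mean of at least 2 FPKM, the median of 3003 pairwise Pearson correlations over 9 libraries was 0.72, and 87.7% were above 0; the libraries are shared and fall into 3 groups, so these values describe the set only. Closest to the median of the other members were Atp5j2 (subunit f of the synthase, r = 0.991), Ndufv2 (a core iron-sulfur subunit of complex I, 0.988) and Cox6c (a small complex IV subunit, 0.984). Atp5j2 had 64.4, 68.1 and 55.7 FPKM with CeD+GR, 43.9, 69.9 and 66.9 FPKM with CeD and 45.7, 92.7 and 89.7 FPKM in control, with control 2 and control 3 highest and CeD 1 and control 1 lowest. Farthest from it were Ndufs8 (r = -0.30), Uqcrc2 (-0.26), Ndufb6 (-0.14), Atp5b (-0.11) and Atp5a1 (0.02). Ndufb6, an accessory subunit of complex I, had 69.4, 48.7 and 67.9 FPKM with CeD+GR, 61, 72.1 and 54.3 FPKM with CeD and 65.3, 64.4 and 55.5 FPKM in control, a narrow range with CeD+GR 2 lowest.

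CeD+GR against CeD showed no common direction among the subunits. The median log2 fold change over the 82 members was 0.01, with 43 positive and 39 negative values, beside 48.9% of all genes below 0. The complex medians were 0.07 (I), -0.22 (II), 0.04 (III), -0.01 (IV) and 0.00 (V). All 4 members of complex II were negative, both core proteins of complex III were negative, and 22 of 31 accessory members of complex I were positive, against 1 of 7 core members. None of these passed the test. The median was -0.18 without CeD 1, -0.02 without CeD+GR 2, 0.15 without CeD 2, 0.11 without CeD 3 and 0.06 without CeD+GR 3, so its sign followed the choice of libraries. The complex II median was -0.37 without CeD+GR 1, -0.06 without CeD+GR 3, -0.41 without CeD 1 and -0.05 without CeD 2. No member had groups that did not overlap, beside 3.04% of all genes lower without overlap and 3.01% higher.

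Apart from Cox6a2 and Cox4i2, which are low and described with the isoforms, the members with the smallest p in each complex were mostly long subunits with negative values. Sdha had a log2 fold change of -0.46 (SE 0.28, unadjusted p = 0.143) and Ndufs1 of -0.42 (SE 0.23, unadjusted p = 0.0965). Uqcrc2 stood at -0.54 (SE 0.43, unadjusted p = 0.239) and Uqcrc1 at -0.35 (SE 0.26, unadjusted p = 0.222). For Atp5b the value was -0.48 (SE 0.44, unadjusted p = 0.305), for Sdhd it was -0.26 (SE 0.41, unadjusted p = 0.551), and for Atp5o, the stalk protein that joins F1 to the stator, -0.26 (SE 0.26, unadjusted p = 0.354), with 104, 65.8 and 69.7 FPKM in CeD+GR, 82.1, 118 and 84.2 FPKM in CeD and 79.8, 99.3 and 89.7 FPKM in control duodenum. Ndufv1, which binds NADH, was at -0.38 (SE 0.26, unadjusted p = 0.176), with 74.6, 46.3 and 52.2 FPKM in CeD+GR, 67.5, 84.1 and 69.8 FPKM in CeD and 64.4, 92.2 and 74.8 FPKM in control duodenum; CeD+GR 2 and CeD+GR 3 were its 2 lowest libraries. Over the members, the fold change had r = -0.45 with log2 coding length, beside -0.22 over all protein-coding genes, and the longest 21 members had a median of -0.18, against 0.02, 0.12 and 0.09 in the 3 shorter length classes.

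CeD+GR against control was below 0 for most members. The median log2 fold change was -0.18, with 73 of 82 members negative, beside 50.3% of all genes below 0. The complex medians were -0.12 (I), -0.38 (II), -0.29 (III), -0.24 (IV) and -0.18 (V). Leaving out control 2 gave a median of -0.03, leaving out control 3 gave -0.06 and leaving out control 1 gave -0.46. The complex II median was -0.23 without CeD+GR 3 and -0.20 without control 2. Sdha, Ndufs1 and Cox6a2 were lower without overlap of the groups, 3 of 82 members or 3.66%, beside 3.04% of all genes, a share close to the background. No member was higher without overlap, beside 2.54% of all genes. Sdha had a log2 fold change of -0.59 (SE 0.28, unadjusted p = 0.0709) and Ndufs1 of -0.50 (SE 0.23, unadjusted p = 0.0563). Uqcrc1 was at -0.45 (SE 0.26, unadjusted p = 0.119), Uqcrfs1 at -0.54 (SE 0.33, unadjusted p = 0.138) and Sdhd at -0.47 (SE 0.41, unadjusted p = 0.284). In complex V the smallest p belonged to Atp5f1, subunit b of the stator, at -0.41 (SE 0.35, unadjusted p = 0.274). It had 116, 97.1 and 67 FPKM in CeD+GR, 79.2, 131 and 104 FPKM in CeD and 79.7, 157 and 141 FPKM in control duodenum; control 1 lay within the CeD+GR range. Of the 9 positive values, that of Ndufb2 came with the smallest p, at 0.54 (SE 0.27, unadjusted p = 0.0773). Ndufb2 had 2.6, 1.7 and 2.25 FPKM with CeD+GR, 1.59, 2.39 and 1.33 FPKM with CeD and 1.2, 1.07 and 1.78 FPKM in control, with control 3 above CeD+GR 2.

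CeD against control was also below 0 for most members in sign, and its size depended on single libraries. The median log2 fold change was -0.21, with 71 of 82 members negative, beside 49.4% of all genes below 0, and with complex medians of -0.19 (I), -0.13 (II), -0.27 (III), -0.26 (IV) and -0.24 (V). No member had groups without overlap, beside 2.49% of all genes lower and 2.2% higher. Without CeD 1 the median was 0.00, with 42 members higher and 40 lower. Without control 1 it was -0.49, without control 2 it was -0.04 and without control 3 it was -0.08. Without CeD 2 it was -0.35. In complex II, Sdhd stood at -0.22 (SE 0.41, unadjusted p = 0.615) and Sdhc at -0.14 (SE 0.29, unadjusted p = 0.645), and both were above 0 without CeD 1 (0.051 and 0.068). Ndufb2 was among the 11 positive members, at 0.29 (SE 0.27, unadjusted p = 0.317). CeD 1 was also the library with the pancreatic transcripts, whose part in these values was not tested.

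By role, the medians in that comparison ran from -0.38 to 0.02. The 5 small members of complex III had a median log2 fold change of -0.38, the Rieske protein Uqcrfs1 stood at -0.31, and the medians were -0.28 for the 12 Fo, stalk and other members of complex V, -0.26 for complex IV, -0.20 for the accessory and -0.10 for the core members of complex I, -0.02 for the F1 subunits and 0.02 for the core proteins of complex III. Atp5k, subunit e of the synthase, had -0.65 (SE 0.48, unadjusted p = 0.211). It had 73.3, 89.6 and 56.5 FPKM in CeD+GR, 48.3, 72.3 and 79.1 FPKM in CeD and 44.7, 161 and 149.8 FPKM in control duodenum, so control 2 and control 3 were the 2 highest libraries and control 1 the lowest. Uqcr10, the smallest-p member of complex III, stood at -0.46 (SE 0.37, unadjusted p = 0.251), with 171, 178 and 171 FPKM in CeD+GR, 121, 172 and 183 FPKM in CeD and 119, 295 and 282 FPKM in control duodenum. Uqcrb, which contributes to ubiquinone binding, stood at -0.38 (SE 0.36, unadjusted p = 0.325), with 85.1, 80.7 and 92.5 FPKM in CeD+GR, 60.2, 90.9 and 95.1 FPKM in CeD and 59.3, 139 and 138 FPKM in control duodenum. Cox7a2l, which takes part in joining complexes III and IV, had -0.39 (SE 0.31, unadjusted p = 0.239), with 171, 170.4 and 126 FPKM in CeD+GR, 92, 129 and 147 FPKM in CeD and 111, 189.5 and 189 FPKM in control duodenum. Ndufv3, an accessory subunit of the NADH-oxidizing arm, had -0.30 (SE 0.24, unadjusted p = 0.24), with 22, 21.1 and 29.5 FPKM in CeD+GR, 17.9, 22.3 and 22.5 FPKM in CeD and 19.6, 29.5 and 29.7 FPKM in control duodenum. Atp5g2 had -0.33 (SE 0.27, unadjusted p = 0.247). In all 6 of these control 1 lay within or below the CeD range. The replicate numbers were taken to pair the CeD and control libraries from these same data, which the labels do not state. A limma fit of these 6 libraries with that pairing gave 11 members at an unadjusted p under 0.05, all lower in CeD, beside 7.48% of all genes. It called 0 members after adjustment, with a smallest adjusted p over all genes of 0.623 in limma.

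**Figure D4:**
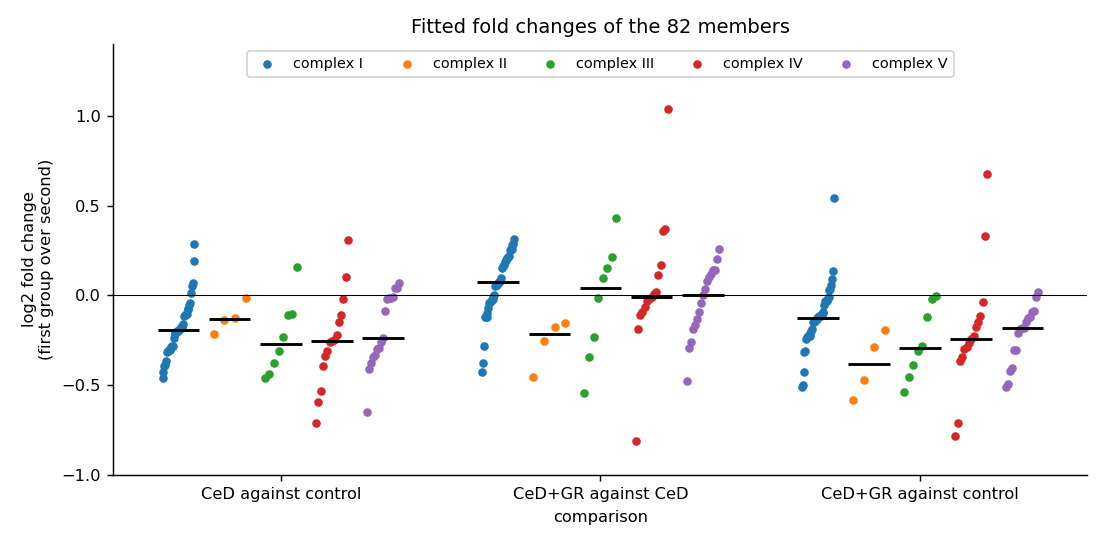
Fitted log2 fold change of each member on the log2(FPKM + 0.5) scale in the 3 comparisons, first group over second, coloured by complex (black bars: median of the complex). The medians of CeD+GR against CeD lie between -0.22 and 0.07, those of CeD+GR against control between -0.38 and -0.12 and those of CeD against control between -0.27 and -0.13; each group enters 2 of the comparisons.

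With the replicate 1 libraries set aside, more members separated, but 2 libraries against 2 separate more readily. In CeD+GR against control, 3.04% of all genes were lower without overlap with 3 libraries a group and 18.7% with 2. Replicate 1 was already known as the lowest library for most members in CeD and control, so leaving it out raises those groups by construction. Both CeD+GR libraries lay below both CeD libraries for 31 members, beside 15.9% of all genes, and above them for 1 (Cox4i2), beside 15.3%. Both lay below both control libraries for 63 members, beside 18.7%, and above them for 1 (Cox4i2), beside 15.9%. The CeD libraries lay below the control libraries for 54 members, beside 21.1%, and above them for 1 (Cox6a2), beside 18.2%. The member medians were then -0.18, -0.50 and -0.28, and 4, 16 and 3 members had an unadjusted p under 0.05, beside 5.51%, 6.44% and 2.07% of all genes, while limma with adjustment still called 0 in each. These comparisons share libraries, and with 2 libraries a group they leave few degrees of freedom. Most members also vary together, so the counts of members are not counts of independent genes. The remaining CeD+GR libraries were CeD+GR 2, with the highest adipocyte and erythroid marker sums, and CeD+GR 3. The latter held the stomach and Brunner gland transcripts and the lowest enterocyte marker sum. The part of these markers in the separation of members was not tested.

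Isoforms known from other tissues were mostly at low levels. Cox4i2, the form of subunit 4 known from lung, had 0.41, 1.69 and 1.16 FPKM with CeD+GR, 0.498, 0.264 and 0 FPKM with CeD and 1.25, 0.693 and 0.301 FPKM in control, and its CeD+GR against CeD value of 1.04 (SE 0.46, unadjusted p = 0.0513) was the largest positive one of any member. CeD 3 is listed at 0, and over the alternatives tried this value ran from 0.71 to 2.41. In CeD against control Cox4i2 stood at -0.71 (SE 0.46, unadjusted p = 0.158). Cox6a2, the striated muscle form, had 0.95, 0.654 and 0.45 FPKM with CeD+GR, 0.742, 2.04 and 2.23 FPKM with CeD and 1.29, 1.31 and 1.66 FPKM in control. Its fold change was -0.81 (SE 0.35, unadjusted p = 0.044) in CeD+GR against CeD and -0.71 (SE 0.35, unadjusted p = 0.0706) in CeD+GR against control, with an adjusted p of 1 in limma for both. Striated muscle markers summed to 3.27 to 10.9 FPKM, and their part was not tested. Cox6b2, the testis form, had 3.03, 6.59 and 1.16 FPKM with CeD+GR, 1.67, 2.51 and 2.46 FPKM with CeD and 1.64, 2.53 and 1.07 FPKM in control, with CeD+GR 2 the highest, and stood at 0.68 (SE 0.49, unadjusted p = 0.203) in CeD+GR against control. Ndufa4l2, a relative of Ndufa4, had 1.3, 0.174 and 1.23 FPKM with CeD+GR, 1.18, 0.57 and 1.61 FPKM with CeD and 0.853, 0.873 and 0.866 FPKM in control, whereas Ndufa4, first placed in complex I and later found with complex IV in human cells, had 136, 132 and 92.7 FPKM with CeD+GR, 85.4, 149 and 132 FPKM with CeD and 83.9, 183 and 173 FPKM in control.

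Cox7a1, the muscle form of subunit 7a, was the exception in level. It had 79.8, 76.9 and 23.1 FPKM in the CeD+GR libraries, 36.1, 93.6 and 62.3 FPKM in the CeD libraries and 42.9, 136 and 126 FPKM in the control libraries, a range of 5.87-fold. The control libraries 2 and 3 were highest and CeD+GR 3, CeD 1 and control 1 lowest. Its fold change was -0.19 (SE 0.62) in CeD+GR against CeD, -0.78 (SE 0.62) in CeD+GR against control and -0.60 (SE 0.62) in CeD against control. Cox7a2, the widespread form, had 208, 136 and 147 FPKM with CeD+GR, 125, 214 and 189 FPKM with CeD and 124, 197 and 216 FPKM in control. Smooth muscle markers summed to 128, 351 and 514 FPKM in CeD+GR, 265, 521 and 1011 FPKM in CeD and 324, 454 and 476 FPKM in control. The 2 brown fat markers summed to 8.83 FPKM in CeD+GR 3, where only 1 of them was above 0, and to 0.388 to 1.43 FPKM elsewhere. The part of either in the level of Cox7a1 was not tested. Cox7b, whose second form Cox7b2 was below the limit, had 180.5, 129 and 116 FPKM with CeD+GR, 117, 170.4 and 144 FPKM with CeD and 111, 214 and 206 FPKM in control.

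The 13 subunits of the mitochondrial genome followed the nuclear ones only in part. Their summed FPKM was 42605, 54976 and 58558 in CeD+GR, 29084, 53803 and 53756 in CeD and 27883, 88126 and 43558 in control. Divided by the sum over the 82 nuclear members, this gave 4.19, 5.28 and 6.99 in CeD+GR, 3.98, 4.72 and 5.05 in CeD and 3.68, 6.22 and 3.25 in control. CeD 1 and control 1 were again the lowest, but control 2 and control 3, which were alike for the nuclear members, differed for the mitochondrial ones. The median log2 fold changes of these 13 were 0.22, 0.13 and -0.14 in CeD+GR against CeD, CeD+GR against control and CeD against control, and none passed the test.

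**Figure D5:**
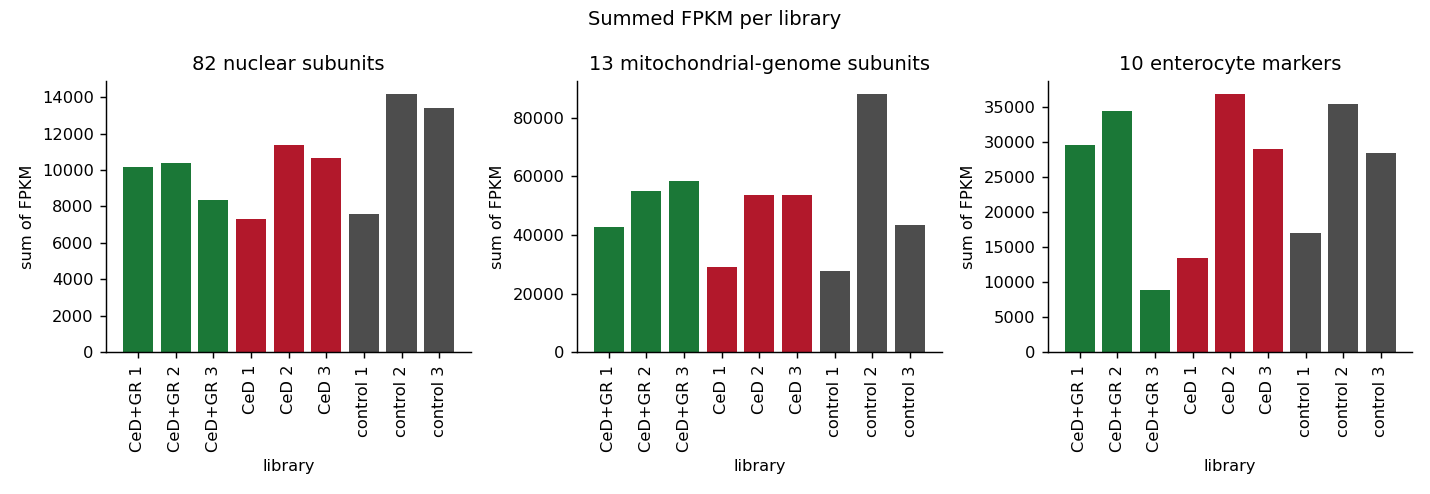
Summed FPKM per library (bars, from 0) of the 82 nuclear subunits, the 13 mitochondrial-genome subunits and the 10 enterocyte markers. Nuclear subunits are highest in control 2 and control 3 (14172 and 13387 FPKM) and lowest in CeD 1 and control 1 (7307 and 7583 FPKM); mitochondrial-genome subunits are highest in control 2 alone, and enterocyte markers are lowest in CeD+GR 3.

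Other genes of the pathway gave 0 calls in every comparison. Of 13 citric acid cycle enzymes, 1 was positive and 12 negative in CeD+GR against CeD (median -0.28), all 13 negative in CeD+GR against control (median -0.36), and 8 positive and 5 negative in CeD against control (median 0.03). Of 13 genes for cytochrome c, cytochrome c1 and carriers, 11, 12 and 8 were negative in CeD+GR against CeD, CeD+GR against control and CeD against control. Cytochrome c1 (Cyc1), a complex III subunit outside the naming rule, had log2 fold changes of -0.50, -0.42 and 0.08 in that order. Of 48 assembly factors 19, 23 and 32 were negative, and of 77 mitochondrial ribosomal proteins 11, 25 and 60. Of all genes tested, 48.9%, 50.3% and 49.4% were below 0 in the same order of comparisons. The median citric acid cycle enzyme stood at 0.18, -0.46 and -0.43 in CeD+GR 1, CeD+GR 2 and CeD+GR 3, as log2 distance from the mean over 9 libraries. It stood at 0.16, 0.41 and -0.21 in the CeD libraries and at 0.01, 0.16 and 0.05 in the control libraries. The 3 comparisons share libraries, so these counts are not independent of each other.

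Among 13 regulators of the respiratory genes, Ppargc1b, a coactivator of mitochondrial gene expression, had the smallest p. It had 3.98, 4.14 and 2.67 FPKM in the CeD+GR libraries, 5.13, 3.36 and 4.65 FPKM in the CeD libraries and 8.03, 7.19 and 6.61 FPKM in the control libraries. All CeD+GR and all CeD values lay below all control values, both set against the same control libraries. Of all genes, 3.04% were lower without overlap in CeD+GR against control and 2.49% in CeD against control. Ppargc1b had log2 fold changes of -0.94 (SE 0.23, unadjusted p = 0.00308) in CeD+GR against control and -0.69 (SE 0.23, unadjusted p = 0.0168) in CeD against control, with an adjusted p of 1 in limma for both. In CeD+GR against CeD it was at -0.26 (SE 0.23). Of the 13 regulators 8, 8 and 6 were negative in CeD+GR against CeD, CeD+GR against control and CeD against control. Esrrg, an estrogen-related receptor, had 1.11, 0.112 and 0.236 FPKM with CeD+GR, 1.91, 0.794 and 0.723 FPKM with CeD and 1.83, 0.968 and 1.35 FPKM in control, with -1.04 (SE 0.44, unadjusted p = 0.0436) in CeD+GR against control. Ppargc1a, the related coactivator, had 8.19, 12 and 4.05 FPKM in CeD+GR, 9.35, 15.9 and 12.3 FPKM in CeD and 8.74, 12.9 and 10.9 FPKM in control duodenum, and its lowest library was CeD+GR 3. Unlike most subunits, Ppargc1b was highest in CeD 1 and in control 1 within their groups.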

How the data were processed

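RNA from 9 duodenum samples was depleted of ribosomal RNA and made into directional libraries, per the labels' protocols. The deposited values are FPKM per gene on mm10. DESeq2 1.20.0, featureCounts 1.5.0-p3, HISAT2 2.0.5 and fastp are listed in the submitters' processing notes without their roles. No source used here gives the gene annotation, the strand option of the counting or how FPKM were computed, so overlapping genes and members with processed pseudogenes are uncertain. Multiplied by gene length, 100% of values above 0 were whole reads within a tolerance of 0.1 reads.

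Groups were compared with limma 3.58.1 (R 4.3.3) on log2(FPKM + 0.5), two-sided. A single model of group means held all 9 libraries, and variances were moderated by empirical Bayes with a trend on the mean. The 14683 genes that averaged 0.5 FPKM or more entered, with Benjamini-Hochberg adjustment over all of them and a threshold of 0.05. Fold changes on this scale understate those of low genes, and the script was tested on simulated data. Exact permutation of 3 against 3 libraries has a smallest two-sided p of 0.1 and was not used.

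Same-numbered CeD and control libraries deviated together from their group means (r = 0.71, 0.37 and 0.41 over genes), so the numbers were taken to pair those groups. The labels do not say what a number stands for. CeD 3 deviated more with control 2 (r = 0.46) than with control 3, so the pairing of replicates 2 and 3 is uncertain. Values in every library are given for the highest member of each complex, the 2 members per complex with the smallest p in each comparison, and tissue isoforms, and up to 2 genes per context list and comparison may be named. Ndufs8, Ndufb6, Cox7c and Atp5j2 were chosen after their values were seen. Members, lists and alternatives were chosen with earlier results of these data known. Coding lengths are the longest per gene in GENCODE M21, and promoter windows come from RefSeq, matched by symbol or synonym.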

Additional observations from a re-analysis of the deposited data

How the results depend on the processing

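Across 23 alternatives per comparison (pseudocounts, filters, scalings, fits, weights, limma-voom and left-out libraries), limma called 0 members in each of the 3 comparisons. The number of all genes at an unadjusted p under 0.05 ranged from 226 to 1116 in CeD+GR against CeD, from 189 to 1072 in CeD+GR against control and from 52 to 1354 in CeD against control, and 1 gene, no member, was called, in CeD+GR against control without control 1. Leaving out 1 library at a time gave member medians of -0.18 to 0.15, -0.46 to -0.03 and -0.49 to 0.00 in these comparisons. Array weights gave -0.10, -0.38 and -0.28, and quantile normalization 0.01, -0.14 and -0.14. No scaling moved the median of all genes by more than 0.03 on the log2 scale. Over all 82 members, as few as 48 kept their sign in CeD+GR against CeD and 49 in CeD against control, both without CeD 1. In CeD+GR against control as few as 56 did, without control 2. Of 30 named pairs of member and comparison, picked by the smallest p in these same data, 28 kept their sign throughout. In CeD against control, Sdhd was at 0.051 and Sdhc at 0.068 without CeD 1, and at the same values without CeD 1 and CeD+GR 3 together, and Sdhc was at 0.044 without control 2; the cause was not tested. Leaving out 1 library at a time put Sdhd between -0.57 and 0.051 and Sdhc between -0.36 and 0.068.

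With the replicate block in the fit of all 9 libraries the member medians stayed at 0.01, -0.18 and -0.21, 0 members were called, and 0, 1 and 0 members had an unadjusted p under 0.05. CeD+GR 3 did not deviate with CeD 3 (r = -0.12) or control 3 (r = -0.11), so the numbers are not taken to pair CeD+GR. The paired fits of CeD+GR against CeD and against control, added after the data were seen like that of CeD against control, called 0 members.

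With 3 libraries a group, the library medians over the members had a pooled within-group SD of 0.351 on the log2 scale. They were -0.48, 0.18 and 0.07 in the CeD libraries and -0.43, 0.44 and 0.38 in the control libraries, with overlapping ranges. The 4 members under 2 FPKM were dropped by the stricter filter.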
